A study of Mus musculus with 12 samples.

Results

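The 34 genes described here mark the macrophages of the liver: 6 are markers of resident Kupffer cells, 9 are markers of monocytes and of the macrophages that arise from recruited monocytes, and 19 are shared by macrophages of either origin. They were taken by gene name from a table of 55385 features, and each name was found once. The values are TPM, a unit of transcript abundance normalized for gene length and to a total of 1000000 per mouse, measured by RNA-Seq of total RNA from the livers of 12 male C57BL/6 mice, 7 weeks old when injected and killed on day 7. The study asked whether hGULL, a human long noncoding RNA, can take the place of mGULL, its mouse counterpart, after knockdown. Ad-Ctrl mice (n = 4) received the Lac control adenovirus with the empty pAdV5 adenovirus, Ad-shmGULL mice (n = 4) an adenovirus with an shRNA against mGULL together with pAdV5, and Ad-shmGULL+hGULL mice (n = 4) the shRNA adenovirus together with one that expresses hGULL. Every mouse, controls included, received 500000000 pfu of adenovirus in total, and no uninfected mice were analysed here. The comparisons are therefore between virus cargoes. Several shRNAs are listed and the one used is not named, and the route of injection is given as intravitreal in one place and retro-orbital in another. The level of mGULL itself was not analysed here.

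Kupffer cells are the resident macrophages of the liver. They line the sinusoids, where they clear particles, bacteria, adenovirus and aged red cells from portal blood through scavenger, complement and Fc receptors, and in the steady state they renew themselves locally. When Kupffer cells are lost, for example after viral uptake or during steatohepatitis, monocytes that express Ccr2 and Ly6C enter the liver. They express lineage genes such as Adgre1 and Csf1r early, and acquire Clec4f and later Timd4 only over days to weeks. A comparison of resident with recruited markers, with the shared genes beside them, therefore describes macrophage composition in bulk liver RNA. In bulk samples such as these, fewer cells of a type and less RNA per cell cannot be told apart.

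The liver label held in these libraries. Albumin (Alb), the main hepatocyte product, stood at 51854, 73620.1, 64400.0 and 48366 TPM in Ad-Ctrl mice, 59710.1, 58571, 63702 and 57073 in Ad-shmGULL mice and 45795, 52616, 55497 and 50567 in Ad-shmGULL+hGULL mice, and the Kupffer cell markers Clec4f and Cd5l were above 40 TPM in every library. Here and below, values within a group are given in the order of mice 1 to 4.

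Levels spread widely within groups, and 2 libraries were the lowest for many of the genes. Summed over the 34 genes, the level was 2373, 1466, 1602 and 2203 TPM in Ad-Ctrl mice, 1384, 2389.7, 1970.5 and 1985 in Ad-shmGULL mice and 1830.0, 2185, 1959 and 2043 in Ad-shmGULL+hGULL mice. Ad-Ctrl mouse 2 and Ad-shmGULL mouse 1 had the lowest sums, and Ad-Ctrl mouse 1 and Ad-shmGULL mouse 2 the highest, so the highest and the lowest mice came from the same pair of groups. Ad-shmGULL mouse 1 was the lowest of the 12 mice for 16 of the 34 genes and Ad-Ctrl mouse 2 for 12, whereas Ad-shmGULL mouse 2 was the highest for 13 and Ad-Ctrl mouse 1 for 10. Ad-shmGULL+hGULL mice lay between them, and 29 of the 34 genes had their smallest SD of log2(TPM + 1) in that group. The median SD over the members was 0.43 in Ad-Ctrl mice, 0.37 in Ad-shmGULL mice and 0.16 in Ad-shmGULL+hGULL mice, beside 0.19, 0.24 and 0.13 over all tested genes. The mouse with the lowest macrophage sum among controls, mouse 2, also had the highest summed hepatocyte markers, which stood at 86399.6, 117230.0, 101564 and 81772 TPM in Ad-Ctrl mice, 91957, 83253, 100026 and 88213 in Ad-shmGULL mice and 72215, 79606, 87051 and 79884 in Ad-shmGULL+hGULL mice, with Alb the most abundant. The same did not hold in Ad-shmGULL mice, where mouse 3 had the highest hepatocyte sum and mouse 1 the lowest macrophage sum. The part of hepatocyte RNA in these differences was not tested.

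**Figure D1:**
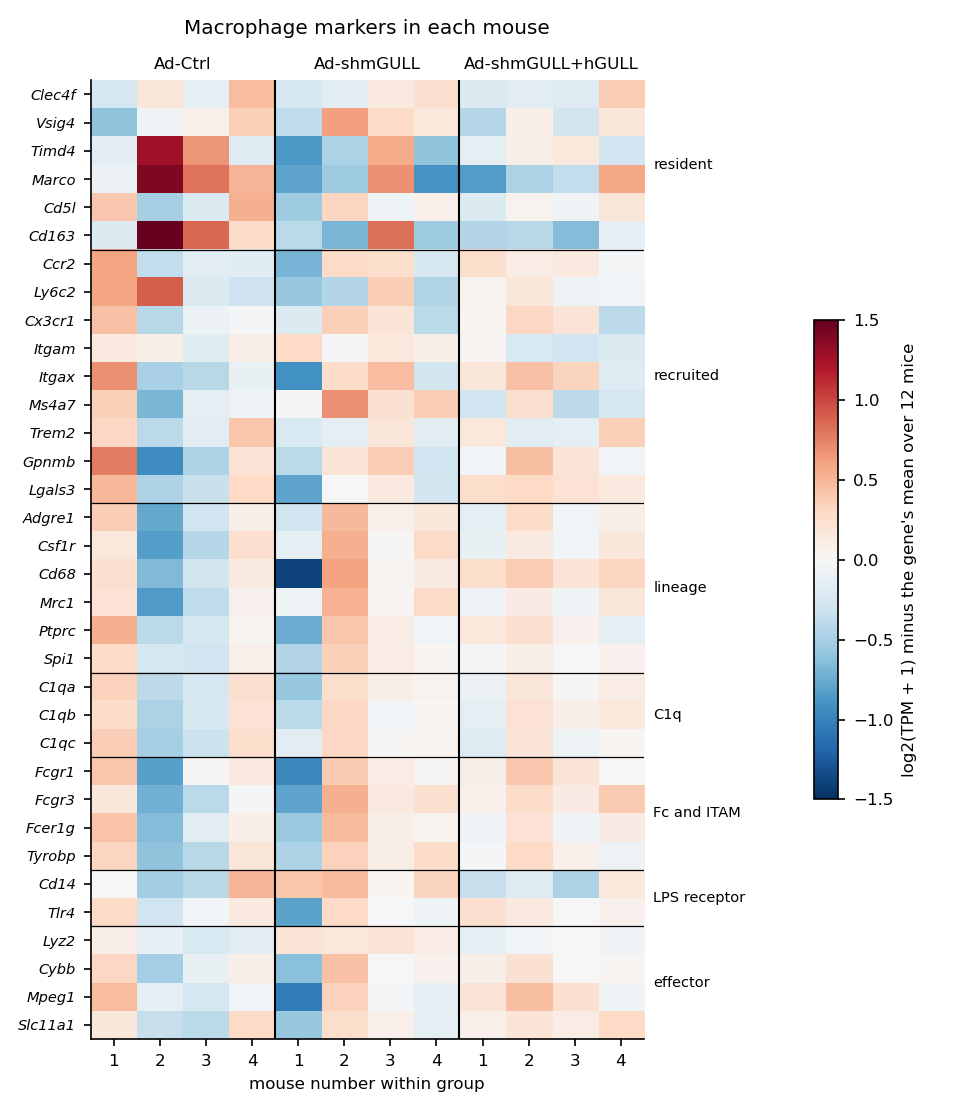
Level of each of the 34 genes in each of the 12 mice, as log2(TPM + 1) minus the gene's mean over all mice (color), with genes grouped by role and mice by group. Most rows below the resident genes are low in Ad-Ctrl mouse 2 and Ad-shmGULL mouse 1, while Timd4, Marco and Cd163 are high in Ad-Ctrl mouse 2.

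Few members differed between groups. The threshold was that of the study, a shift of more than 0.5 in log2 units at a nominal P below 0.05, with P taken here from limma on log2(TPM + 1), a scale that understates the change of low genes. Of the 34 members, 33 had a mean of at least 1 TPM and were tested, and the exception was Itgam. After knockdown, 1 of 33 passed, Marco, which was lower, whereas 7.65% of the 16378 tested genes passed and 2.3% passed with a lower level. Between Ad-shmGULL+hGULL and Ad-shmGULL mice, 1 of 33 passed, Cd14, again lower, beside 3% of all genes and 0.672% lower. Between Ad-shmGULL+hGULL and Ad-Ctrl mice, 2 of 33 passed, Marco and Cd163, both lower, beside 7.49% of all genes and 0.641% lower. Each pair of comparisons shares 4 mice, controls in the comparisons against Ad-Ctrl, so these counts are not independent. With limma's P adjusted over all tested genes, 0 members had an adjusted p under 0.05 in any of the 3 comparisons, where 3.23%, 0% and 2.15% of all genes did. At a nominal P below 0.05 alone, without the fold limit, limma gave 2, 2 and 2 of 33 members, beside 3316, 1757 and 4149 genes.

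These counts rested on single mice. For knockdown minus control the count was 6 without Ad-Ctrl mouse 1, 0 without Ad-Ctrl mouse 2, 2 without Ad-Ctrl mouse 3 and 7 without Ad-Ctrl mouse 4. It was 3 without Ad-shmGULL mouse 1, 5 without mouse 3 and 0 without mouse 4. Genes that gained a call in at least 1 of these fits were Timd4, Cd163, Ms4a7, Ly6c2, Csf1r, Mrc1, Fcgr3 and Cd14. For Ad-shmGULL+hGULL minus Ad-shmGULL it was 2 without Ad-shmGULL mouse 3, 0 without Ad-shmGULL+hGULL mouse 1 or mouse 3, and 2 without mouse 2, and Ms4a7, Mpeg1 or Lgals3 gained a call in some of these fits. For Ad-shmGULL+hGULL minus Ad-Ctrl it was 3 without Ad-Ctrl mouse 1, where Fcgr3 gained a call, 0 without Ad-Ctrl mouse 2 and 1 without Ad-Ctrl mouse 3 or without Ad-shmGULL+hGULL mouse 1, 2 or 3. With both Ad-Ctrl mouse 2 and Ad-shmGULL mouse 1 left out, an alternative chosen after seeing the data, the counts were 0, 1 and 0. The 1 was Ms4a7, and Cd14 lost its call.

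The median log2 fold change of the members was -0.016 after knockdown, beside 0.087 over all tested genes, 0.10 beside 0.093 between Ad-shmGULL+hGULL and Ad-shmGULL mice, and 0.10 beside 0.17 between Ad-shmGULL+hGULL and Ad-Ctrl mice. The last of these shifts of all genes exceeds 0.1. After subtraction of these shifts the members stood at -0.10, 0.012 and -0.074, with 11, 17 and 12 of 33 above 0, and the 6 resident markers at -0.51, -0.091 and -0.44, with 1, 2 and 0 above 0. The 8 tested recruited markers stood at -0.13, 0.10 and -0.067, with 1, 6 and 3 above 0. The direction of many single members depends on that shift. For Ad-shmGULL+hGULL minus Ad-Ctrl, 24 of 33 had a positive log2 fold change as deposited, 9 after scaling by the median of ratios and 13 after quantile normalization. Scaling by the median of ratios moves all genes of a mouse alike, so its changes of sign only restate the shift. The calls over all genes moved with it: 876 were higher and 377 lower after knockdown as deposited, 608 and 571 after scaling by the median of ratios and 576 and 529 after quantile normalization. Against Ad-Ctrl in Ad-shmGULL+hGULL mice they were 1121 and 105, 481 and 240, and 440 and 261. Between the shRNA groups they were 382 and 110, 250 and 163, and 229 and 191. Marco, Cd163 and Cd14 passed with each scaling where they passed as deposited.

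**Figure D2:**
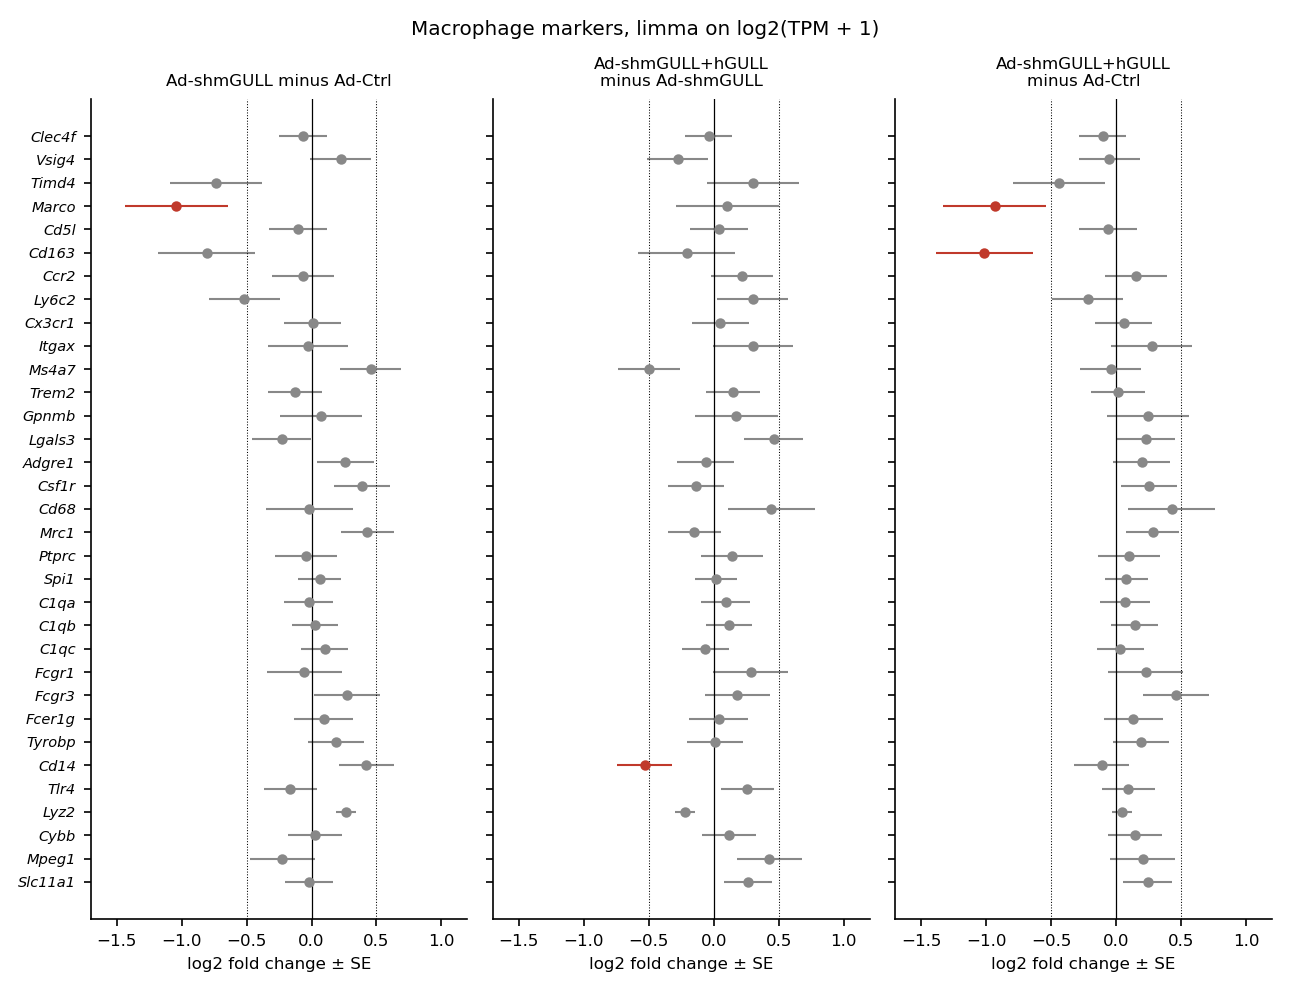
Log2 fold change of log2(TPM + 1) with its SE from limma for the 33 tested genes in the 3 comparisons. Red points passed the study's threshold (Marco after knockdown, Cd14 between Ad-shmGULL+hGULL and Ad-shmGULL, Marco and Cd163 between Ad-shmGULL+hGULL and Ad-Ctrl), and dotted lines mark log2 fold changes of -0.5 and 0.5.

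Of the 6 resident markers, Marco and Cd163 passed the threshold in at least 1 comparison. Marco, a class A scavenger receptor that binds bacteria and particles, was at 10.8, 32.2, 21 and 16.9 TPM in Ad-Ctrl mice, 6.25, 7.65, 19.2 and 5.79 in Ad-shmGULL mice and 6.04, 8.003, 8.70 and 17.8 in Ad-shmGULL+hGULL mice. Of the Ad-shmGULL mice 3, and 3 of the Ad-shmGULL+hGULL mice lay below every control, but Ad-shmGULL mouse 3 and Ad-shmGULL+hGULL mouse 4 lay within the control range. The mean was 20.2 ± 9.002 TPM with Ad-Ctrl, 9.74 ± 6.39 with Ad-shmGULL and 10.1 ± 5.23 with Ad-shmGULL+hGULL (SD, n = 4). In limma, Marco fell after knockdown (log2 fold change -1.04 ± 0.40 SE, adjusted p = 0.16) and was lower in Ad-shmGULL+hGULL than in Ad-Ctrl mice (log2 fold change -0.93 ± 0.40 SE, adjusted p = 0.17), with no difference past the threshold between the shRNA groups (log2 fold change 0.10 ± 0.40 SE, adjusted p = 0.93). The call after knockdown was lost without Ad-Ctrl mouse 2 (limma log2 fold change -0.79, adjusted p = 0.38), Ad-shmGULL mouse 1 (-0.90, adjusted p = 0.25) or Ad-shmGULL mouse 4 (-0.87, adjusted p = 0.3), over a range from -1.40 to -0.79 with adjusted p from 0.041 to 0.38 as each of the 12 mice was left out. The largest of these, without Ad-shmGULL mouse 3, was the only 1 with an adjusted p below 0.05. The call against control in Ad-shmGULL+hGULL mice was lost without Ad-Ctrl mouse 2 (-0.69), Ad-Ctrl mouse 3 (-0.88) or Ad-shmGULL+hGULL mouse 1 (-0.75), mouse 2 (-0.87) or mouse 3 (-0.90).

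Cd163, the receptor through which macrophages take up hemoglobin bound to haptoglobin, was at 1.79, 8.11, 4.87 and 2.93 TPM in Ad-Ctrl mice, 1.44, 1.01, 4.72 and 1.23 in Ad-shmGULL mice and 1.38, 1.43, 1.05 and 1.98 in Ad-shmGULL+hGULL mice. Ad-Ctrl mouse 2 was the highest, and Ad-shmGULL mouse 3 again lay among the controls. Of the Ad-shmGULL+hGULL mice, 3 were below the lowest control and mouse 4 was just above it. Cd163 was lower in Ad-shmGULL+hGULL than in Ad-Ctrl mice in limma (log2 fold change -1.01 ± 0.37 SE, adjusted p = 0.13), a call that was lost without Ad-Ctrl mouse 2 (-0.72, adjusted p = 0.34; -1.29 to -0.72 with adjusted p from 0.055 to 0.34 over the 12 mice). After knockdown it missed the threshold (log2 fold change -0.81 ± 0.37 SE, adjusted p = 0.25), and it passed with a pseudocount of 0.1, with either other scaling, and without Ad-Ctrl mouse 1 (-1.08), Ad-Ctrl mouse 4 (-0.92) or Ad-shmGULL mouse 3 (-1.15). Without Ad-Ctrl mouse 2 it shrank (limma, -0.51, adjusted p = 0.54), as it did with both Ad-Ctrl mouse 2 and Ad-shmGULL mouse 1 left out (-0.44, adjusted p = 0.61).

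Timd4, the phosphatidylserine receptor that engulfs apoptotic cells and marks long-lived Kupffer cells, was lower still at 0.983, 4.40, 2.54 and 0.963 TPM in Ad-Ctrl mice, 0.233, 0.610, 2.29 and 0.479 in Ad-shmGULL mice and 1.02, 1.39, 1.49 and 0.842 in Ad-shmGULL+hGULL mice. Ad-Ctrl mice 2 and 3 and Ad-shmGULL mouse 3 were the highest, as for Cd163, and the groups overlapped. It did not pass the threshold in any comparison (limma, log2 fold change -0.74 ± 0.35 SE, adjusted p = 0.27 after knockdown), and at these levels the log2(TPM + 1) scale shrinks its fold change. Timd4 passed after knockdown with a pseudocount of 0.1, with a replicate block, and without Ad-Ctrl mouse 1, Ad-Ctrl mouse 4 or Ad-shmGULL mouse 3.

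Because Marco, Cd163 and Timd4 were high in the same mice, the 250 bases before their RefSeq transcription starts are shown (GRCm38.p6, the build to which the reads were aligned). The Marco sequence lies on the minus strand at chr1:120505025-120505274, just outside the gene (120474538 to 120505024 on chromosome 1). The Cd163 sequence lies on the plus strand at chr6:124304401-124304650, and the Timd4 sequence on the plus strand at chr11:46810549-46810798. Both end a few bases inside the listed genes, which start at 124304636 and 46810786. Capitals mark the PU box, GAGGAA, the core bound by the macrophage transcription factor PU.1, searched on both strands.
Marco: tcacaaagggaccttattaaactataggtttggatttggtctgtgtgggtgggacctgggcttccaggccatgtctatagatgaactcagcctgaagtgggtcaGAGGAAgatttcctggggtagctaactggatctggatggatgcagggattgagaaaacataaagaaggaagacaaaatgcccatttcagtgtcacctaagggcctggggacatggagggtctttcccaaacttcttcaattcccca
Cd163: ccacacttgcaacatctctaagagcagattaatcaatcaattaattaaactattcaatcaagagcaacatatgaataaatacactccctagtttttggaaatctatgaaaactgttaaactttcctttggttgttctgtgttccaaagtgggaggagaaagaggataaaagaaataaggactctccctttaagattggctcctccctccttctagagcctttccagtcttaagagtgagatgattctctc
Timd4: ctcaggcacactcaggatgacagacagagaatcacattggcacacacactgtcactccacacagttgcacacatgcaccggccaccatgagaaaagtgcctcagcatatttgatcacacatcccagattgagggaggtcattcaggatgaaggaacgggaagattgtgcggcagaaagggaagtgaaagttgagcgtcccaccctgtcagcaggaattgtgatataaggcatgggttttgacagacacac
Marco held 1 PU box and Cd163 and Timd4 held 0 in these windows. Of the 27 members with a promoter in the RefSeq table, 14 held at least 1 in the 250 bases before the first listed start (51.9%), beside 23.3% of the 32851 listed promoters searched over 250 bases. A match is a description of the letters and not of binding.

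Clec4f, Vsig4 and Cd5l had no call in any comparison. Clec4f, a C-type lectin restricted to Kupffer cells in mice, was at 46.2, 63.2, 50.2 and 77.3 TPM in Ad-Ctrl mice, 46.2, 49.6, 61.8 and 66.4 in Ad-shmGULL mice and 48.2, 49.5, 48.5 and 73.05 in Ad-shmGULL+hGULL mice. Every group spanned nearly the same range, with mouse 4 the highest in each. Cd5l, a secreted scavenger-receptor-like protein of tissue macrophages and the most abundant member, was at 399, 213, 259 and 436 TPM in Ad-Ctrl mice, 208, 377, 289 and 319 in Ad-shmGULL mice and 261, 313, 291 and 341 in Ad-shmGULL+hGULL mice, with Ad-Ctrl mouse 2 and Ad-shmGULL mouse 1 the lowest and complete overlap of the groups. Vsig4, the complement receptor for C3b, had group means of 14.4, 17.05 and 13.7 TPM, here and below with controls first, knockdown second and rescue last. After knockdown their log2 fold changes were -0.066 for Clec4f, -0.10 for Cd5l and 0.23 for Vsig4, none past the threshold. The ratio of Marco to Clec4f TPM within a mouse, which does not depend on the total, was 0.234, 0.509, 0.419 and 0.218 in Ad-Ctrl mice, 0.135, 0.154, 0.312 and 0.0872 in Ad-shmGULL mice and 0.125, 0.162, 0.179 and 0.243 in Ad-shmGULL+hGULL mice. All but 1 of the Ad-shmGULL mice and 3 of the Ad-shmGULL+hGULL mice were below every control, with Ad-shmGULL mouse 3 and Ad-shmGULL+hGULL mouse 4 inside the control range.

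**Figure D3:**
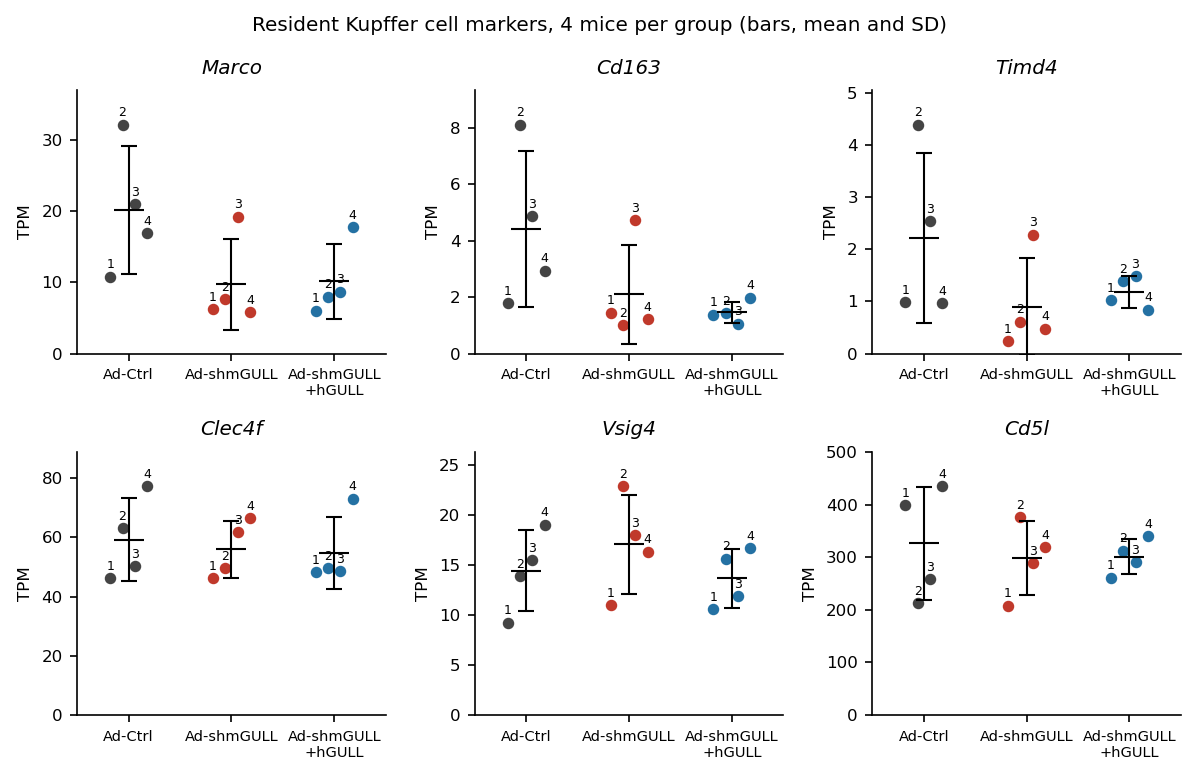
TPM of the 6 resident Kupffer cell markers in each mouse (points, numbered within group), with the group mean and SD (bars, n = 4). Marco, Cd163 and Timd4 are highest in Ad-Ctrl mouse 2, and Ad-shmGULL mouse 3 lies among the controls for all 3, whereas Clec4f, Vsig4 and Cd5l overlap across the groups.

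The balance of resident and recruited markers did not fully separate the groups. After knockdown the median log2 fold change was -0.42 over the 6 resident markers and -0.047 over the 8 tested recruited markers, a difference of -0.37. The resident median lay in a gap and near no single gene. Below it were Marco (-1.04), Cd163 (-0.81) and Timd4 (-0.74). Above it were Cd5l (-0.10), Clec4f (-0.066) and Vsig4 (0.23), which had higher mean TPM. The difference of medians was -0.19 between Ad-shmGULL+hGULL and Ad-shmGULL mice and -0.38 between Ad-shmGULL+hGULL and Ad-Ctrl mice. With the filter at a mean of at least 5 TPM, which leaves 4 resident and 3 recruited markers, the differences were 0.15, -0.30 and -0.31 in the same order. With both Ad-Ctrl mouse 2 and Ad-shmGULL mouse 1 left out it was -0.13, -0.17 and -0.18 in the 3 comparisons. Within each mouse, the mean log2(TPM + 1) of the resident list minus that of the recruited list was 1.16, 2.74, 2.39 and 2.10 in Ad-Ctrl mice, 1.65, 1.52, 1.95 and 1.73 in Ad-shmGULL mice and 1.35, 1.48, 1.55 and 2.03 in Ad-shmGULL+hGULL mice. Ad-Ctrl mouse 1 was the lowest of all 12 mice and Ad-Ctrl mouse 2 the highest, so the controls spanned the whole range. Ad-Ctrl mice 2, 3 and 4 lay above every mouse of the other groups (highest 2.03), so the overlap rests on Ad-Ctrl mouse 1. Group means were 2.09 ± 0.68 in Ad-Ctrl mice, 1.71 ± 0.18 in Ad-shmGULL mice and 1.60 ± 0.30 in Ad-shmGULL+hGULL mice (SD, n = 4).

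**Figure D4:**
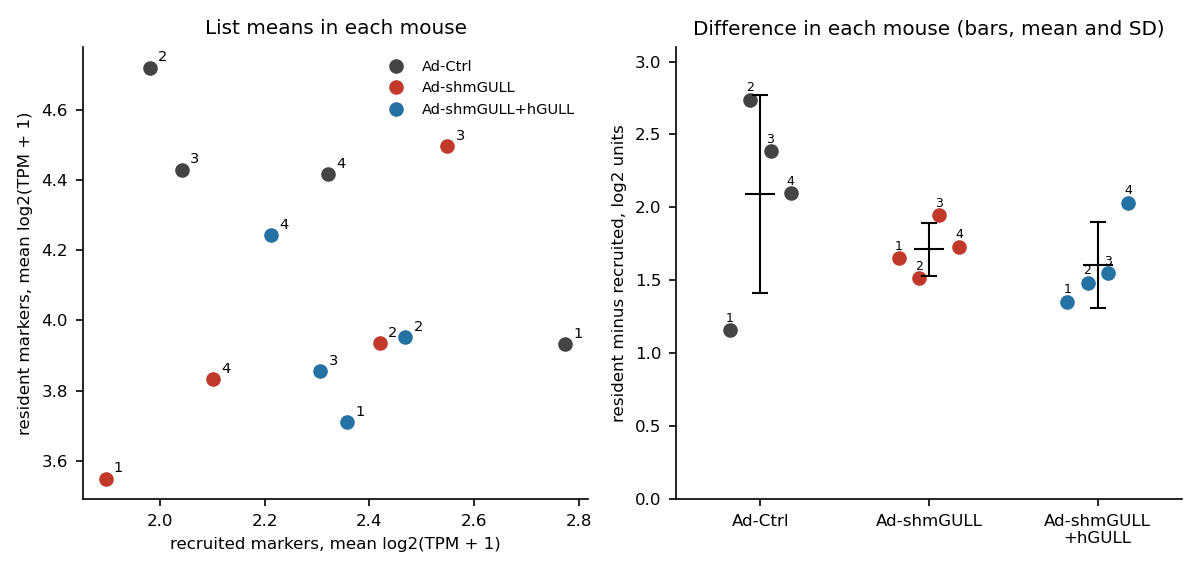
Left, mean log2(TPM + 1) of the 6 resident markers against that of the 9 recruited markers in each mouse. Right, the difference between the lists in each mouse with the group mean and SD (n = 4). The 4 Ad-Ctrl mice run from 1.16 (mouse 1) to 2.74 and enclose all 8 others, while Ad-Ctrl mice 2, 3 and 4 lie above all 8.

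Of the 9 recruited markers 8 were tested, and 0 passed the threshold in any comparison as deposited. Lgals3, a galectin of activated macrophages, was the most abundant at 50.6, 25.5, 27.9 and 44.01 TPM in Ad-Ctrl mice, 20.2, 35.6, 39.3 and 29.1 in Ad-shmGULL mice and 42.9, 44.1, 41.3 and 39.3 in Ad-shmGULL+hGULL mice. Every Ad-shmGULL+hGULL mouse was above the highest Ad-shmGULL mouse and the 2 groups did not overlap before rounding, while Ad-Ctrl mice ran from 25.5 to 50.6 TPM. Its log2 fold change between these groups missed the threshold (limma, log2 fold change 0.46 ± 0.22 SE, adjusted p = 0.48). Itgax, the integrin CD11c of dendritic cells and some macrophages, was at 10.6, 4.10, 4.37 and 5.65 TPM in Ad-Ctrl mice, 2.82, 7.71, 8.91 and 4.92 in Ad-shmGULL mice and 7.15, 8.72, 8.06 and 5.28 in Ad-shmGULL+hGULL mice, with wide overlap. The monocyte chemokine receptor Ccr2 had group means of 4.86, 4.61 and 5.30 TPM, and Cx3cr1, the fractalkine receptor, 3.75, 3.77 and 3.92 TPM, in the same order of groups. Ly6c2, the antigen of inflammatory monocytes, had means of 6.54, 4.12 and 5.09 TPM and a log2 fold change of -0.52 after knockdown (limma adjusted p = 0.31), and its reads may be shared with its near copy Ly6c1. Ly6c2 passed after knockdown with quantile normalization. Ms4a7, a marker of macrophages derived from monocytes, had means of 1.27, 2.06 and 1.17 TPM and a log2 fold change of -0.50 between Ad-shmGULL+hGULL and Ad-shmGULL mice, which passed with either other scaling. Trem2 and Gpnmb, which mark lipid-associated macrophages, had means of 1.55, 1.28 and 1.54 TPM and of 2.86, 2.76 and 3.18 TPM. Itgam, the integrin CD11b of monocytes and neutrophils, was not tested and ran from 0.369 to 1.05 TPM.

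Of the 19 shared genes, 1 passed the threshold in any comparison, Cd14. Of the lineage genes, Csf1r, the receptor for the growth factor on which macrophages depend, was at 93.1, 46.9, 61.7 and 99.5 TPM in Ad-Ctrl mice, 75.9, 121, 84.4 and 102 in Ad-shmGULL mice and 77.3, 91.9, 81.2 and 94.1 in Ad-shmGULL+hGULL mice, and Adgre1, which encodes F4/80, was at 73.3, 32.99, 45.8 and 60.5 TPM in Ad-Ctrl mice, 46.1, 79.6, 60.02 and 63.7 in Ad-shmGULL mice and 50.99, 69.04, 55.2 and 60.6 in Ad-shmGULL+hGULL mice. Both were lowest in Ad-Ctrl mouse 2 and highest in Ad-shmGULL mouse 2. Neither passed the threshold, with log2 fold changes after knockdown of 0.39 and 0.26. Group means were 40.8, 53.8 and 47.9 TPM for Mrc1, the mannose receptor, which sinusoidal endothelium also makes, and 37.7, 40.5 and 49.6 TPM for the lysosomal protein Cd68. They were 11.8, 11.6 and 12.4 TPM for the leukocyte antigen Ptprc and 16.9, 17.8 and 17.7 TPM for Spi1, which encodes PU.1. Cd68 was at 14.8 TPM in Ad-shmGULL mouse 1 and between 25.1 and 61.7 TPM in the other 11 mice.

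The 3 chains of complement C1q, made in liver mainly by macrophages, lie side by side on chromosome 4 within 18719 bp (136880126 to 136898844, GRCm38.p6). C1qb was at 287, 171, 201 and 277 TPM in Ad-Ctrl mice, 179, 294, 230.5 and 242 in Ad-shmGULL mice and 217, 277, 255 and 265 in Ad-shmGULL+hGULL mice, and C1qa was at 191, 115, 126 and 178 TPM in Ad-Ctrl mice, 101, 181, 162 and 157 in Ad-shmGULL mice and 142, 171, 152 and 162 in Ad-shmGULL+hGULL mice. Both were low in Ad-Ctrl mice 2 and 3 and in Ad-shmGULL mouse 1, and their groups overlapped. C1qc had group means of 119, 124 and 118 TPM. The levels varied together: C1qa varied 1.90-fold over the 12 mice, whereas the ratio of C1qb to C1qa stayed between 1.42 and 1.77. The ratio of C1qc to C1qa lay between 0.728 and 0.816 in 11 mice and was 1.05 in Ad-shmGULL mouse 1. None of the 3 genes passed the threshold, and their log2 fold changes lay between -0.066 and 0.14 over the 3 comparisons.

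Tyrobp and Fcer1g encode the ITAM adaptors through which Fc and Trem receptors signal. Tyrobp was at 110.4, 57.9, 65.9 and 100.03 TPM in Ad-Ctrl mice, 63.7, 112, 93.6 and 107 in Ad-shmGULL mice and 86.1, 109, 93.1 and 83.6 in Ad-shmGULL+hGULL mice, and Fcer1g was at 99.1, 46.3, 65.2 and 78.5 TPM in Ad-Ctrl mice, 49.7, 102, 78.9 and 76.6 in Ad-shmGULL mice and 70.7, 85.3, 70.96 and 80.1 in Ad-shmGULL+hGULL mice. Ad-Ctrl mouse 2 was the lowest for both, and Ad-Ctrl mouse 1 and Ad-shmGULL mouse 2 were among the highest. Among the Fc receptors that use them, Fcgr3 had group means of 21.5, 26.9 and 29.2 TPM and Fcgr1 of 12.7, 12.3 and 14.4 TPM, neither past the threshold.

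Of the lipopolysaccharide receptors, Cd14, the co-receptor, which hepatocytes also make, was at 8.83, 5.79, 6.32 and 12.9 TPM in Ad-Ctrl mice, 12.02, 12.6, 8.99 and 11.3 in Ad-shmGULL mice and 6.67, 7.51, 6.04 and 9.88 in Ad-shmGULL+hGULL mice. The level in 3 Ad-shmGULL+hGULL mice was below that in every Ad-shmGULL mouse, mouse 4 was above Ad-shmGULL mouse 3, and the controls spanned both groups. In limma Cd14 was lower in Ad-shmGULL+hGULL than in Ad-shmGULL mice (log2 fold change -0.53 ± 0.21 SE, adjusted p = 0.42). The call was lost without Ad-shmGULL mouse 1 (log2 fold change -0.50, just inside the limit) or mouse 2 (-0.48) and without Ad-shmGULL+hGULL mouse 1 (-0.49) or mouse 3 (-0.45). It was also lost with both Ad-Ctrl mouse 2 and Ad-shmGULL mouse 1 left out (-0.50). Tlr4, the signaling receptor, was at 7.53, 4.66, 5.78 and 6.75 TPM in Ad-Ctrl mice, 3.02, 7.62, 5.97 and 5.70 in Ad-shmGULL mice and 7.34, 6.75, 5.99 and 6.29 in Ad-shmGULL+hGULL mice, with Ad-shmGULL mouse 1 the lowest and no call in any comparison.

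Lyz2 had the smallest ratio of the highest to the lowest of the 12 mice, 1.34-fold. It encodes the lysozyme of myeloid cells, and its reads may be shared with its near copy Lyz1, since how such reads were assigned is not given in the sources used here. Lyz2 was at 161, 138, 127 and 134 TPM in Ad-Ctrl mice, 171, 167, 171 and 161 in Ad-shmGULL mice and 135, 145, 149.7 and 144 in Ad-shmGULL+hGULL mice. All 4 Ad-shmGULL mice were above all 4 Ad-shmGULL+hGULL mice and above all 4 Ad-Ctrl mice, though Ad-Ctrl mouse 1 came close. It was the single member of 33 whose groups did not overlap after knockdown, as 8.99% of all tested genes did. Between the shRNA groups 2 of 33 did not overlap, Lyz2 and Lgals3, beside 6.38%, and between Ad-shmGULL+hGULL and Ad-Ctrl mice 0 of 33, beside 22.3%. Its log2 fold changes lay inside the study's limit of 0.5 (limma, log2 fold change 0.26 ± 0.077 SE, adjusted p = 0.079 after knockdown, and log2 fold change -0.22 ± 0.077 SE, adjusted p = 0.4 between Ad-shmGULL+hGULL and Ad-shmGULL). Without Ad-Ctrl mouse 1 limma gave 0.33, adjusted p = 0.021 after knockdown (from 0.22 to 0.33 with adjusted p from 0.021 to 0.2 over the 12 mice), and with scaling by the median of ratios 0.15, adjusted p = 0.36. Mpeg1, the pore-forming protein of macrophage phagosomes and the most abundant of these effectors, was at 363, 238, 222 and 257 TPM in Ad-Ctrl mice, 127, 335, 259 and 239 in Ad-shmGULL mice and 302, 362, 315 and 252 in Ad-shmGULL+hGULL mice. Ad-shmGULL mouse 1 was far below the rest, and the groups overlapped. Group means were 37.6, 38.8 and 40.9 TPM for Cybb, the catalytic chain of the phagocyte oxidase, and 26.1, 25.7 and 30.4 TPM for Slc11a1, the divalent metal transporter of phagosomes.

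Among 10 further Kupffer cell markers, Cd207 was the only gene past the threshold after knockdown, beside 7.65% of all tested genes. Cd207 encodes langerin, a C-type lectin best known from Langerhans cells and also reported in liver macrophages. It was at 10.1, 2.15, 3.68 and 5.71 TPM in Ad-Ctrl mice, 26.1, 26.3, 16.1 and 17.4 in Ad-shmGULL mice and 14.3, 20.6, 14.3 and 12.2 in Ad-shmGULL+hGULL mice. All 8 mice given the shRNA adenovirus were above all 4 controls. Groups did not overlap, in either direction, for 8.99% of all tested genes after knockdown and for 22.3% between Ad-shmGULL+hGULL and Ad-Ctrl mice. In limma Cd207 rose after knockdown (log2 fold change 1.93 ± 0.32 SE, adjusted p = 0.012) and was higher in Ad-shmGULL+hGULL than in Ad-Ctrl mice (log2 fold change 1.48 ± 0.32 SE, adjusted p = 0.043), without a difference past the threshold between the shRNA groups (log2 fold change -0.45 ± 0.32 SE, adjusted p = 0.61). The call at the study's threshold held in both comparisons as each of the 12 mice was left out, from 1.64 to 2.25 with adjusted p from 0.0044 to 0.041 in limma after knockdown and from 1.19 to 1.80 with adjusted p from 0.014 to 0.14 in Ad-shmGULL+hGULL mice against control. Over the other alternatives limma's adjusted p ran from 0.008 to 0.053 after knockdown, highest with only the 2 groups compared, and from 0.033 to 0.12 in the latter comparison, where it was above 0.05 with either other scaling, no filter, no trend, a replicate block and both libraries left out. That adjusted p under 0.05 therefore depended on the processing.

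Clec4f, 1 of the 4 resident markers without a call in any comparison, is the neighbor of Cd207, 15090 bp away on chromosome 6 with 0 RefSeq genes between them. Their sequences are shown for that reason, each the 250 bases before the RefSeq start on the minus strand (GRCm38.p6), Clec4f at chr6:83656117-83656366 and Cd207 at chr6:83677858-83678107, with the PU box (GAGGAA, or TTCCTC where it lies on the other strand) in capitals.
Clec4f: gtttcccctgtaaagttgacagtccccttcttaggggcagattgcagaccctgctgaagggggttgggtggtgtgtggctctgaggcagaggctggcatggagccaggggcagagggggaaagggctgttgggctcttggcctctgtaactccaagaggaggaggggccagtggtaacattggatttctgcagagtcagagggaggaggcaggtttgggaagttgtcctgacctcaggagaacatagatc
Cd207: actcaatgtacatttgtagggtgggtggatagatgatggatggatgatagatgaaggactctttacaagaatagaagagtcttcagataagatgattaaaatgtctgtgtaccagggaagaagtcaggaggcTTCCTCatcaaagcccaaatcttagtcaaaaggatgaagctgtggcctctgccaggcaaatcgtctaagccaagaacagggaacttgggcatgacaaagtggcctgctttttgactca
The Cd207 window held 1 PU box and the Clec4f window 0. A test of the difference between the 2 genes was not made.

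**Figure D5:**
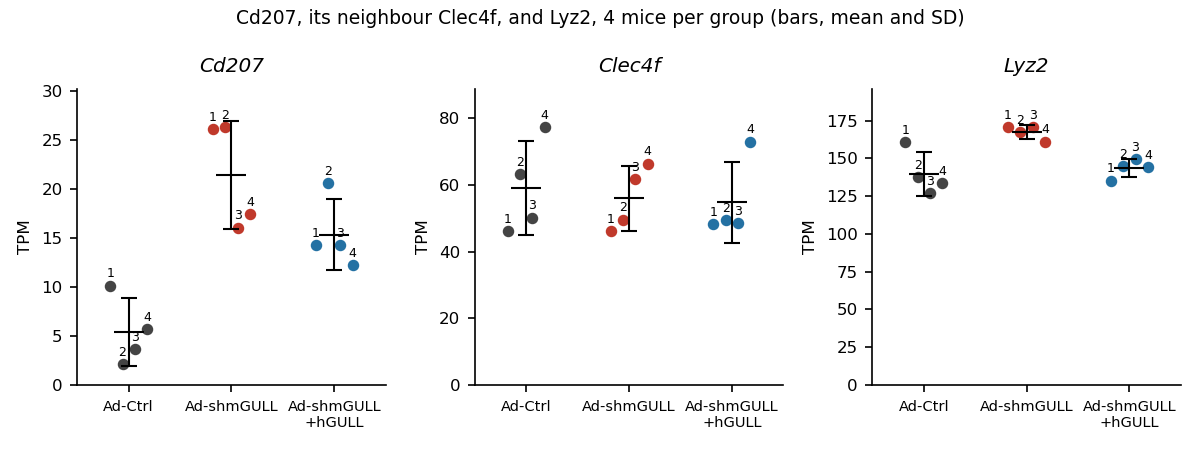
TPM of Cd207, of its chromosomal neighbor Clec4f and of Lyz2 in each mouse (points, numbered within group), with the group mean and SD (bars, n = 4). Cd207 lies between 2.15 and 10.1 in Ad-Ctrl mice and between 12.2 and 26.3 in the 8 others, whereas Clec4f overlaps in all groups.

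The remaining 9 further Kupffer markers had no call in any comparison, and the most abundant was C6, a complement component that hepatocytes also make, at group means of 327, 286 and 326 TPM. None of 11 macrophage transcription factors passed as deposited (most abundant Cebpb, 513, 501 and 395 TPM), though in Ad-shmGULL+hGULL against Ad-Ctrl mice 2 were lower with scaling by the median of ratios and 1 with quantile normalization, and none of 6 tested genes of CSF1 and CSF2 signaling did (Csf2ra, 16.2, 16.4 and 15.6 TPM), where Csf2 was listed at 0 in every mouse. None of 12 ITAM and Fc signaling genes (Sirpa, 50.4, 58.7 and 58.5 TPM), 5 phagocyte oxidase genes (Cyba, 51.9, 54.6 and 51.2 TPM) or 8 tested lipopolysaccharide response genes (Lbp, 79.7, 69.3 and 78.2 TPM) passed in any comparison. Of 8 tested inflammatory cytokine genes, 0 passed after knockdown (Il18, 29.3, 33.8 and 42.7 TPM), 1 was lower in Ad-shmGULL+hGULL than in Ad-shmGULL mice and 1 was higher than in Ad-Ctrl mice, beside 0.672% of all tested genes lower and 1121 of 16378 higher. Il1b, named after its values were seen, gave the former call and Il18 the latter, and Il18 did not pass with either other scaling. With quantile normalization the counts were 2 lower than in Ad-shmGULL mice, and 0 higher and 1 lower than in Ad-Ctrl mice.

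Among receptors and lysosomal genes, Cd36 and Lipa were higher after knockdown, beside 876 of 16378 tested genes higher. Cd36, a scavenger receptor and fatty acid translocase of macrophages, endothelium and hepatocytes, was the one gene of 8 tested scavenger receptors past the threshold, at 93.9, 30.1, 57.4 and 83.5 TPM in Ad-Ctrl mice, 142, 342, 109.7 and 164 in Ad-shmGULL mice and 225, 200.2, 113 and 198 in Ad-shmGULL+hGULL mice. All 8 mice given the shRNA adenovirus were above all controls, where 8.99% and 22.3% of all tested genes did not overlap after knockdown and for Ad-shmGULL+hGULL minus Ad-Ctrl. In limma the log2 fold change of Cd36 was 1.49 ± 0.39 SE (adjusted p = 0.056) after knockdown and 1.54 ± 0.39 SE (adjusted p = 0.055) for Ad-shmGULL+hGULL minus Ad-Ctrl. Lipa, the lysosomal acid lipase, was the one of 8 lysosomal genes that passed, at 96.6, 60.5, 86.9 and 91.6 TPM in Ad-Ctrl mice, 95.4, 164, 123 and 121 in Ad-shmGULL mice and 138, 133, 122 and 127 in Ad-shmGULL+hGULL mice. Ad-shmGULL mouse 1 lay within the control range and the other 7 above it (limma, log2 fold change 0.58 ± 0.16 SE, adjusted p = 0.073 after knockdown, and log2 fold change 0.64 ± 0.16 SE, adjusted p = 0.056 for Ad-shmGULL+hGULL minus Ad-Ctrl). Neither Lipa call held with scaling by the median of ratios, and the call against Ad-Ctrl in Ad-shmGULL+hGULL mice did not hold with quantile normalization either. The most abundant lysosomal gene, Lamp1, had group means of 620.0, 617 and 709.6 TPM. Which cells carried Cd36 or Lipa was not tested.

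Among 16 tested chemokine genes, 0 were higher and 2 lower after knockdown, Ccl12 and Cxcl9 (3 lower with either other scaling), beside 2.3% of all tested genes lower. Ccl12, a ligand of Ccr2, was at 3.77, 1.30, 2.53 and 0.599 TPM in Ad-Ctrl mice, 0.377, 0.137, 0.9998 and 0 in Ad-shmGULL mice and 1.38, 1.91, 1.85 and 1.19 in Ad-shmGULL+hGULL mice. Every Ad-shmGULL+hGULL mouse was above every Ad-shmGULL mouse, where 6.38% of all tested genes did not overlap, and Ad-Ctrl mouse 4 lay among the Ad-shmGULL mice (limma, log2 fold change -1.08 ± 0.32 SE, adjusted p = 0.081, and log2 fold change 0.95 ± 0.32 SE, adjusted p = 0.39 for Ad-shmGULL+hGULL minus Ad-shmGULL). Cxcl9, the most abundant and a target of interferon gamma, was at 157, 175, 136 and 84.6 TPM in Ad-Ctrl mice, 21.95, 123, 116 and 71.2 in Ad-shmGULL mice and 151, 149.9, 155 and 111 in Ad-shmGULL+hGULL mice. Ad-shmGULL mouse 1 was the lowest by far, and the other groups overlapped (limma, log2 fold change -0.94 ± 0.43 SE, adjusted p = 0.25, and log2 fold change 1.01 ± 0.43 SE, adjusted p = 0.44). In Ad-shmGULL+hGULL mice 3 chemokine genes were higher than in Ad-shmGULL mice, Ccl12, Cxcl9 and Cx3cl1 (3 higher with scaling by the median of ratios, 2 higher and 1 lower with quantile normalization), beside 382 of 16378 tested genes higher. Against Ad-Ctrl mice 3 were higher, Ccl8, Ccl24 and Cxcl1, and 0 with either other scaling, beside 1121 of 16378 tested genes higher as deposited. Cx3cl1 (0.828, 0.732 and 1.55 TPM) and Ccl8 (0.772, 1 and 1.73 TPM) reached the filter only through the Ad-shmGULL+hGULL mice, so their calls carry little weight. Ccl12 (2.05, 0.378 and 1.58 TPM) reached it through the Ad-Ctrl and Ad-shmGULL+hGULL mice, so its calls carry little weight too.

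Markers of other cell types show what else moved between these livers. All 9 genes of sinusoidal endothelium, the cells beside which Kupffer cells lie, had positive log2 fold changes after knockdown. Their median was 0.41, beside 0.087 over all tested genes. The threshold was passed by 3 of them (Stab2, Oit3 and Gpr182), beside 876 of 16378 tested genes higher. With either other scaling 0 passed, and the list medians were 0.31 and 0.33. Stab2, the hyaluronan scavenger receptor and the most abundant of the 9, was at 41.8, 26.2, 33.6 and 38.04 TPM in Ad-Ctrl mice, 48.2, 60.7, 43.3 and 51.4 in Ad-shmGULL mice and 44.7, 43.6, 46.4 and 48.4 in Ad-shmGULL+hGULL mice. All 8 mice given the shRNA adenovirus were above every control, where 8.99% and 22.3% of all tested genes did not overlap after knockdown and for Ad-shmGULL+hGULL minus Ad-Ctrl. In limma the log2 fold change of Stab2 after knockdown was 0.54 ± 0.13 SE (adjusted p = 0.048). The summed level of the 9 genes was 267, 153, 191 and 244 TPM in Ad-Ctrl mice, 271, 325, 258 and 282 in Ad-shmGULL mice and 246, 266, 255 and 293 in Ad-shmGULL+hGULL mice. It was lowest in Ad-Ctrl mouse 2, the mouse with the lowest macrophage sum among controls. Since Mrc1 is made by these cells too, its part in the Mrc1 values was not tested. Of 8 hepatocyte genes 2 (3 and 1 with the other scalings) were lower after knockdown, Apoa1 (-0.60) and Tat (-0.80), and the same genes were lower in Ad-shmGULL+hGULL than in Ad-Ctrl mice (-0.60 and -0.81). Over all tested genes, 2.3% and 0.641% were lower in these comparisons. Gpr182 was higher in Ad-shmGULL+hGULL than in Ad-Ctrl mice (0.53), the 1 of 9 endothelial genes past the threshold, beside 1121 of 16378 tested genes higher. With either other scaling 0 of the endothelial genes passed there. Of 8 stellate cell genes 0 passed after knockdown (Dcn, 46.9, 46.2 and 51.6 TPM). Of 4 tested cholangiocyte genes 1 was higher after knockdown, Sox9 (0.64), with Spp1 the most abundant (75.2, 80.8 and 94.2 TPM).

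Lists of other leukocytes gave 0 calls after knockdown. Of 13 tested T and NK cell genes, 0 passed after knockdown (Nkg7, 15.2, 12.4 and 15.6 TPM) and 1, Gzmb, was higher in Ad-shmGULL+hGULL than in Ad-shmGULL mice (1.03), beside 382 of 16378 tested genes higher. The list summed to 99.8, 31.7, 40.9 and 53.2 TPM in Ad-Ctrl mice, 31.4, 63.2, 61.7 and 47.03 in Ad-shmGULL mice and 57.5, 71, 59.5 and 54.4 in Ad-shmGULL+hGULL mice. Ad-Ctrl mouse 1 was the highest in it, as it was for Ccr2, Itgax and Gpnmb, and Ad-Ctrl mouse 2 and Ad-shmGULL mouse 1 were the lowest, as they were in the macrophage sum. Of 6 B cell genes 3 were tested, with Cd79b the most abundant (3.92, 4.75 and 3.24 TPM), and of 8 dendritic cell genes 4 were, with Clec9a the most abundant (9.31, 9.85 and 9.81 TPM). None of these passed after knockdown, nor did any of 5 tested erythroid genes (Hbb-bs, 325, 353 and 317 TPM). No marker in these lists of other cell types was listed at 0 in every mouse.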

How the data were processed

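RNA-Seq values of 12 mouse livers, 4 in each of 3 groups given by the sample labels, were used. The authors made strand-specific libraries, trimmed reads with fastp 0.23.2, aligned them with HISAT2 2.2.1.0 to GRCm38.p6 and deposited the values as TPM on GENCODE VM24 genes. The submitters' processing notes also list FastQC 0.11.8, featureCounts and Subread 2.0. TPM sum to 1000000 in every mouse and keep no depth, so depth and counting error are unknown and precision is given by the spread between mice. 

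The 16378 of 55385 features whose TPM averaged 1 or more were fitted on log2(TPM + 1) in R 4.3.3 with limma 3.58.1, all 12 mice in 1 model with no covariates, moderated variances that follow the trend of variance with the mean, and P adjusted by the Benjamini-Hochberg method over all tested genes. Changes of list medians are descriptions without a test. The alternatives tried were no filter, a filter at 5 TPM, a pseudocount of 0.1, scaling by the median of ratios, quantile normalization, only the 2 groups compared, no trend, a replicate block, leaving out each mouse, and leaving out both Ad-Ctrl mouse 2 and Ad-shmGULL mouse 1, the last added after the data were seen. The procedure was tested on simulated data with independent noise for each gene and known changes in the knockdown group. That simulation held no shifts of whole libraries and no changes in genes of low level, so it does not cover these. Members and lists were chosen with earlier results of these data known, and 1 gene first placed in the cytokine list is not reported here. Values in all mice are given for members past the threshold and for the 2 most abundant in each role (Timd4 was added after its values were seen), and for other members group means. From each other list the most abundant gene and up to 3 genes past the threshold after knockdown are named, some with values in all mice and the rest with group means or fold changes. Promoters came from the RefSeq table of GRCm38.p6 (27 of 34 members matched). Figures were drawn in Python 3.11.15 with matplotlib 3.10.9.

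With 4 mice in a group, changes smaller than the spread between mice would be missed, and several calls rest on 1 mouse. Bulk RNA does not separate cell number from RNA per cell, and genes such as Mrc1, Cd14 and Cd36 are made by other liver cells too. All mice carried adenovirus, and the Ad-shmGULL+hGULL group differs from controls in both viruses, so a steady-state liver was not analysed here. Read depth, batch, cage and shared reads of paralogs are unknown. Fold changes on log2(TPM + 1) understate those of genes near 1 TPM.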

Additional observations from a re-analysis of the deposited data

Results flagged for a closer look

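A count of 6 of 102 sets of 4 values (34 genes in 3 groups) held a mouse far from the other 3, where chance gives about 1 in 20. Ad-shmGULL mouse 3 was apart for 3 genes. Marco was 19.2 TPM in it and 5.79 to 7.65 in the other Ad-shmGULL mice, Cd163 was 4.72 TPM and 1.01 to 1.44, and Ly6c2 was 6.71 TPM and 3.03 to 3.39. Ad-Ctrl mouse 1 was apart for Ccr2, at 7.71 TPM against 3.48 to 4.13 in the other controls. In Ad-shmGULL+hGULL mice, Clec4f was 73.0 TPM in mouse 4 and 48.2 to 49.5 in the others, and Ms4a7 was 1.85 TPM in mouse 2 and 0.847 to 1.01 in the others.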

How the results depend on the processing

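The number of members past the threshold depended on the processing. After knockdown it was 1 as reported, 3 with a pseudocount of 0.1, 2 with scaling by the median of ratios, 3 with quantile normalization, 2 with the replicate block and 0 with both Ad-Ctrl mouse 2 and Ad-shmGULL mouse 1 left out (chosen after seeing the data), and 0 to 7 as each mouse was left out. Between Ad-shmGULL+hGULL and Ad-shmGULL mice it was 1 as reported, 2 with either other scaling, and 0 to 2 as each mouse was left out. Between Ad-shmGULL+hGULL and Ad-Ctrl mice it was 2 as reported, 1 with the filter at 5 TPM, where Cd163 was not tested, 0 with both libraries left out, and 0 to 3 as each mouse was left out. The difference between resident and recruited medians after knockdown was -0.37 as reported and 0.15 with the filter at 5 TPM, which leaves fewer genes, -0.13 with both libraries left out, and -0.70 to -0.17 as each mouse was left out. For Ad-shmGULL+hGULL minus Ad-shmGULL it was -0.17 with both left out and -0.43 to -0.14, and for Ad-shmGULL+hGULL minus Ad-Ctrl -0.18 with both left out and -0.72 to -0.18, as each mouse was left out. Single genes moved as well. Marco after knockdown was -1.04 as reported and -0.65 (weaker) with both libraries left out. Cd163 after knockdown was -0.81 as reported and -1.10 (stronger) with pseudocount 0.1, -0.89 (stronger) with median-of-ratios scaling, -0.92 (stronger) with quantile normalization. Marco for Ad-shmGULL+hGULL minus Ad-shmGULL was 0.10 as reported and -0.032 (moved) with both libraries left out. Cd14 for Ad-shmGULL+hGULL minus Ad-shmGULL was -0.53 as reported and -0.50 (weaker) with both libraries left out. Marco for Ad-shmGULL+hGULL minus Ad-Ctrl was -0.93 as reported and -0.69 (weaker) with both libraries left out. Cd163 for Ad-shmGULL+hGULL minus Ad-Ctrl was -1.01 as reported and -0.72 (weaker) with both libraries left out. Lyz2 for Ad-shmGULL+hGULL minus Ad-Ctrl was 0.043 as reported and -0.16 (moved) with median-of-ratios scaling, -0.10 (moved) with quantile normalization. Cd163 after knockdown was -0.44, adjusted p = 0.61 in limma with both libraries left out and -0.51, adjusted p = 0.54 without Ad-Ctrl mouse 2. The causes were not tested.

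Mice with the same number did not deviate together: 2 of 12 same-numbered pairs had a correlation of deviations over 0.1 across genes, beside 5 of 36 other pairs. Of the 12 mice, 4 were closest to their own number in another group. What the number stands for is not known. With the replicate block the counts were 2, 1 and 2. Over all genes, 876 were higher and 377 lower after knockdown as reported, and 608 and 571 with scaling by the median of ratios (576 and 529 with quantile normalization). Between Ad-shmGULL+hGULL and Ad-shmGULL mice they were 382 and 110, and 250 and 163 (229 and 191). Between Ad-shmGULL+hGULL and Ad-Ctrl mice they were 1121 and 105, and 481 and 240 (440 and 261). Marco, Cd163 and Cd14 kept their direction, in the comparison in which each passed, under every alternative in which they were tested.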

Other observations

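Genes induced by interferon, many of which macrophages express, fell after knockdown. Of 18 such genes, 16 were lower and 0 higher after knockdown, beside 2.3% of all tested genes lower, with a median log2 fold change of -0.81. In Ad-shmGULL+hGULL against Ad-shmGULL mice 13 were higher and 0 lower, with a median of 0.62, beside 382 of 16378 tested genes higher. With limma's adjusted p under 0.05 the counts were 5 and 0 of 18 in these comparisons. Against Ad-Ctrl mice 0 passed in Ad-shmGULL+hGULL mice, with 13 of 18 negative and a median of -0.11, beside 0.17 over all tested genes. With scaling by the median of ratios and quantile normalization that median was -0.30 and -0.27, with 2 lower in each. With these scalings 16 were lower after knockdown in each, and 11 and 12 were higher than in Ad-shmGULL mice. The list summed to 326.6 TPM in Ad-shmGULL mouse 1, the mouse with the lowest macrophage sum. In Ad-shmGULL mice 2 to 4 it summed to 622.8, 659.9 and 511.3 TPM. Ifit1, which binds viral RNA, was at 46.7, 74.6, 48.3 and 25.9 TPM in Ad-Ctrl mice, 12.3, 17.5, 24.7 and 18.3 in Ad-shmGULL mice and 32.6, 31.2, 37.3 and 26.1 in Ad-shmGULL+hGULL mice. The Ad-shmGULL mice lay below every control and every Ad-shmGULL+hGULL mouse, where 8.99% and 6.38% of all tested genes did not overlap. In limma the log2 fold change of Ifit1 was -1.33 ± 0.27 SE (adjusted p = 0.024) after knockdown. It was 0.80 ± 0.27 SE (adjusted p = 0.39) for Ad-shmGULL+hGULL minus Ad-shmGULL. Irf7, the most abundant of the list and a transcription factor for interferon genes, was at 135, 136, 122 and 101 TPM in Ad-Ctrl mice, 42.4, 86.7, 89.2 and 67.7 in Ad-shmGULL mice and 93.2, 111, 124 and 87.5 in Ad-shmGULL+hGULL mice, with all Ad-shmGULL mice below all controls (limma, log2 fold change -0.82 ± 0.21 SE, adjusted p = 0.0501 after knockdown). Rsad2 (-0.90 in log2 fold change) and Isg15 (-1.11) fell too. Over the same comparison the macrophage members had a median of -0.016, and a test of the difference was not made.

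Of 7 tested neutrophil genes, 0 passed the threshold after knockdown and 4 were lower in Ad-shmGULL+hGULL than in Ad-shmGULL mice, where 0.672% of all tested genes were lower. None of the 7 had an adjusted p under 0.05 in limma. S100a9, the most abundant, was at 140.4, 128, 72.6 and 59.5 TPM in Ad-Ctrl mice, 158, 70.99, 163 and 97.4 in Ad-shmGULL mice and 53.3, 63.9, 62.3 and 79.8 in Ad-shmGULL+hGULL mice. Ad-shmGULL mice 1 and 3 and Ad-Ctrl mice 1 and 2 were high, and Ad-shmGULL mouse 2 lay among the Ad-shmGULL+hGULL mice (limma, log2 fold change -0.84 ± 0.30 SE, adjusted p = 0.4). Ly6g, a defining neutrophil marker, was below a mean of 1 TPM and was not tested.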
